A study of Mus musculus with 4 samples.

Results

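Cryab, Hspb1 and Hspb8 encode small heat shock proteins, and their levels were followed in mouse kidney cells during 7 days of glyoxylate. They are 3 of the 27998 genes in the count tables, and were chosen by their measured levels by day, since earlier results of these data had shown them higher in tubule cells after glyoxylate. Their levels by day are therefore a description and no test of that difference. Male C57BL/6 mice aged 6-8 weeks received glyoxylate into the peritoneum, and kidney cells were taken after 0, 1, 4 and 7 days (D0, D1, D4 and D7). Kidneys were dissociated with trypsin and DNase and profiled by 10x droplet RNA sequencing, with 1 library for each day. How many mice went into a library was not given in the sources used here. No difference between days could be tested, and every interval below is a 95% interval that covers counting error only.

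Small heat shock proteins hold unfolding proteins in a soluble state without using ATP, and pass them on to the ATP-driven chaperones of the Hsp70 group. αB-crystallin, the product of Cryab, and Hsp27, the product of Hspb1, also bind actin and intermediate filaments, and Hspb8 works with the cochaperone Bag3 to direct damaged proteins to autophagy. Heat shock factor 1 is known to switch on Hspb1 and Cryab under proteotoxic stress. The body turns glyoxylate into oxalate, which forms calcium oxalate crystals in the tubule.

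In the GENCODE M21 annotation of mm10, Cryab (ENSMUSG00000032060) lies at chr9:50751325-50756636 on the plus strand and Hspb1 (ENSMUSG00000004951) at chr5:135887919-135889563 on the plus strand. Hspb8 (ENSMUSG00000041548) lies at chr5:116408491-116422864 on the minus strand. Cryab shares 1030 bases with Hspb2, a family member on the opposite strand, and whether the authors' counting used strand was not given in the sources used here. Promoters of 300 bases were read for Hspb1 and Hspb8 from RefSeq (GRCm38.p6), and searched on both strands for the inverted heat shock repeats GAANNTTC and TTCNNGAA, the AP-1 motif TGANTCA and the TATA box TATAAA. The heat shock repeats are shown because they hold the letters that heat shock factors are known to bind. Below, capitals mark GAANNTTC in the 150 bases before the Hspb1 start (chr5:135887769-135887918, plus strand) and in 30 bases around the Hspb8 start (chr5:116422845-116422874, minus strand).
Hspb1: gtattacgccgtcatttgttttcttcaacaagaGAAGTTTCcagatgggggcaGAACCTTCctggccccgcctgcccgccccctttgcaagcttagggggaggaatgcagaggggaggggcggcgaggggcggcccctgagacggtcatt
Hspb8: cagaagccaggaGAAGTTTCtaggctcgcg
Hspb1 held the repeat 2 times, beginning at -117 and at -97 from its start, and 0.344% of the 32851 promoters held it 2 or more times. Hspb8 held it once, beginning at +3, and 7.86% of promoters held it at least once. The other motifs were not in these windows, while 8.52% of promoters held TTCNNGAA, 7.81% TGANTCA and 13.6% TATAAA. A match of letters is a description and shows no binding.

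Barcodes with at most 50% mitochondrial UMIs were sorted by marker UMIs. The proximal tubule gate asked for at least 2 UMIs of Lrp2 plus Slc34a1, and held 11592, 7549, 14843 and 12405 of the 14485, 11428, 16103 and 14455 kept barcodes at D0, D1, D4 and D7. All 10 proximal markers not used in the gate were present at D7 and at D0, with 12520 and 15361 summed CPM, the UMIs of a gene per 1e+06 UMIs of the gate. Havcr1-positive tubule barcodes (at least 1 UMI of Kim-1, an injury receptor) numbered 9, 117, 496 and 635. Thick limb barcodes (at least 3 UMIs of Slc12a1) numbered 102, 103, 99 and 164, distal barcodes (at least 3 of Slc12a3) 346, 254, 199 and 300, and immune barcodes (at least 1 of Ptprc) 726, 1337, 522 and 758. The libraries held between 85009491 and 99337001 UMIs. The shallowest barcode had 500, 500, 2919 and 2773 UMIs, so barcodes under 2773 UMIs exist at D0 and D1 and at neither later day. Between 50 and 81 barcode sequences recurred in a pair of libraries.

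Cryab was the member with most UMIs in the proximal tubule gate, and its level was higher at each later day. It stood at 21.1, 33.8, 99.1 and 146 CPM at D0, D1, D4 and D7, from 1655, 2140, 8252 and 11712 UMIs. The D7 level was 6.90 times the D0 level (6.55 to 7.27), and the 4 levels had intervals that did not overlap. Hspb1 stood at 12.3, 19.5, 36.3 and 54.1 CPM from 966, 1237, 3024 and 4352 UMIs, with a D7 over D0 ratio of 4.39 (4.09 to 4.71). Hspb8 was near the limit of detection, at 0.319, 0.584, 0.648 and 2.20 CPM from 25, 37, 54 and 177 UMIs. Its ratio at D7 was 6.90 (4.52 to 10.95). Its intervals at D0 and D1 overlapped, as did those at D1 and D4, while the D7 interval lay above the rest. With 1 library a day, animal, digestion and day cannot be told apart.

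Part of the D0 signal lay in barcodes that also carried markers of other epithelia. Barcodes with at least 3 UMIs of urothelial, principal cell or intercalated cell markers made up 92, 84, 94 and 87 of the proximal tubule gate. They held 41.6, 40.5, 4.17 and 1.24% of its Hspb1 UMIs, and 20.6, 19.3, 1.36 and 1.71% of its Cryab UMIs. At D0, 25 barcodes with urothelial markers (Upk1b, Upk3a, Krt5, Psca) had Hspb1 at 965 CPM. The summed urothelial markers of the gate stood at 5.00 CPM at D7 and 84.4 CPM at D0.
Without these barcodes (the cleared gate, a step chosen after the data were seen), Hspb1 stood at 7.30, 11.9, 35.1 and 53.9 CPM at D0, D1, D4 and D7, and the D7 ratio was 7.38 (6.76 to 8.07) in place of 4.39. Cryab stood at 17.0, 27.9, 98.6 and 144 CPM, with a ratio of 8.48 (8.01 to 8.99). Hspb8 stood at 0.233, 0.566, 0.654 and 2.19 CPM, with a ratio of 9.41 (5.78 to 16.3). The D0 levels of all 3 genes were thus lower in the cleared gate, and the D7 levels moved little. At D1, 1 barcode of 2310 UMIs held 159 of the 736 Hspb1 UMIs of the cleared gate, and without the top barcode of each library the D1 over D0 ratio of Hspb1 was 1.32 (1.18 to 1.49).

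**Figure D1:**
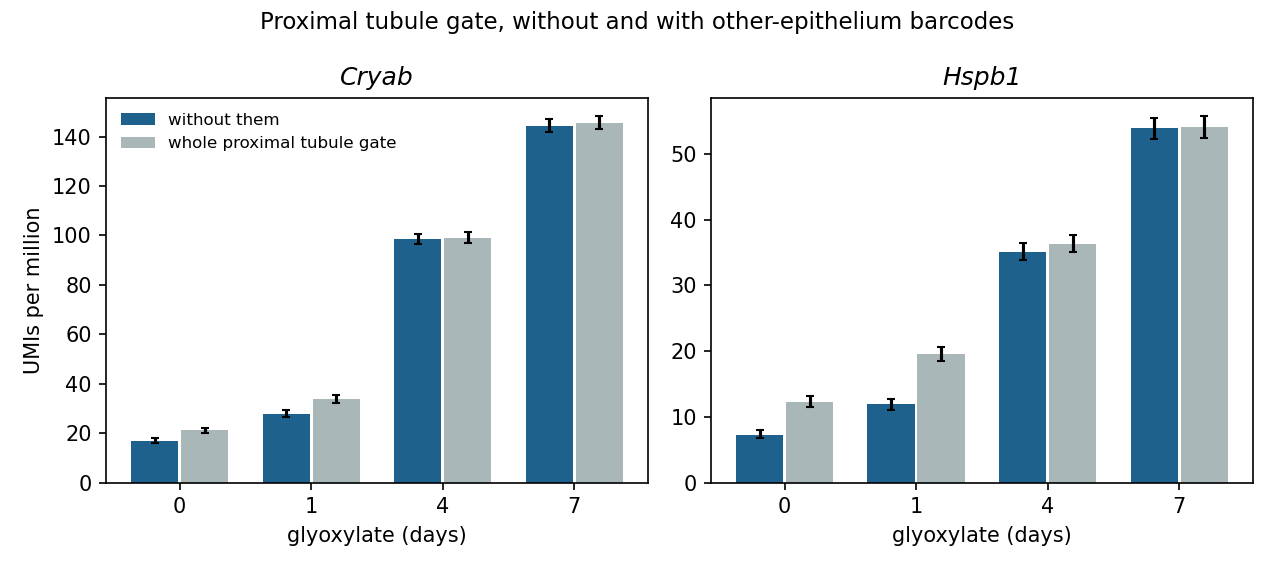
Level of Cryab (left) and Hspb1 (right) in CPM by day of glyoxylate in the proximal tubule gate, without (blue) and with (grey) barcodes that carry markers of other epithelia; bars start at 0 and error bars are 95% Poisson intervals of 1 library. Hspb1 at D0 is 7.30 without them and 12.3 with them, while the D7 bars are 53.9 and 54.1.

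Mitochondrial share and depth differed between libraries, with median mitochondrial shares of 16.4, 11.04, 16.9 and 18.02% in the proximal tubule gate. Within 4 classes of mitochondrial share in the cleared gate, the D7 over D0 ratio ranged from 7.34 to 9.62 for Cryab and from 5.20 to 9.20 for Hspb1. Within 4 classes of depth it ranged from 6.81 to 14.0 for Cryab. For Hspb1 it was 1.54 (1.00 to 2.32) in barcodes under 3000 UMIs and lay between 5.28 and 11.1 in the deeper classes. Median depth in the class under 3000 UMIs was 1600.5 at D0 and 2889 at D7, so depth was not matched there. The D1 values varied more with the class. Hspb1 at D1 was 4.91 times D0 under 3000 UMIs and 0.987 times from 3000 to under 6000 UMIs. The barcode named above held 159 of the 195 Hspb1 UMIs of the shallow class at D1, and without the top barcode of each library that ratio was 1.26 (0.801 to 1.97). The same D1 barcode held 60 of 132 Cryab UMIs, and the Cryab ratio of that class was 3.33 with the top barcodes and 1.90 (1.34 to 2.68) without them. Cryab at D1 was 0.897 times D0 (0.659 to 1.21) where mitochondrial UMIs were 30 to 50%. The part of depth and mitochondrial share in the D1 values was not tested.

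The segments of the proximal tubule differed in the level of each gene. Havcr1-negative barcodes of the cleared gate were divided into segments and a rest, with at least 2 UMIs of the named genes. S1 had Slc5a2 plus Slc5a12, the sodium-glucose and lactate carriers of the first segment, and no Slc7a13 UMI. Slc7a13 barcodes had this amino acid transporter and fewer than 2 UMIs of Slc5a2 plus Slc5a12. Serpina1 barcodes had Serpina1d plus Serpina1f, which encode forms of α1-antitrypsin. The rest, in no segment, held 5071, 3561, 6597 and 5120 barcodes at D0, D1, D4 and D7. A Serpina1 gate without Slc7a13 held 4, 2, 10 and 12 barcodes. It was therefore widened, after the data were seen, to 133, 39, 256 and 251 barcodes. Barcodes with at least 2 UMIs of Serpina1d plus Serpina1f were left out of S1, and with this step also of the Slc7a13 gate. In these Serpina1 barcodes Cryab stood at 413, 296, 893 and 1251 CPM at D0, D1, D4 and D7. They held 29.2% of all Cryab UMIs of kept barcodes at D0, in 0.918% of the barcodes. At D7, 54.6% of them (48.2 to 60.9) had Cryab after thinning to 1000 UMIs, and at D0 24.1% (17.1 to 32.2), against 84.9 and 56.4% unthinned at median depths of 7890 and 10895 UMIs. Median mitochondrial share in these barcodes was 24.4% at D7 and 22.8% at D0.
Cryab in S1 stood at 11.9, 15.1, 30.9 and 60.8 CPM, a D7 over D0 ratio of 5.11 (4.39 to 5.98). In Slc7a13 barcodes it stood at 7.20, 17.5, 50.6 and 70.6 CPM, a ratio of 9.80 (8.58 to 11.2). The Serpina1 ratio was 3.03 (2.78 to 3.31), the lowest of the 3 from the highest D0 level. At D1 the Serpina1 level was 0.716 times D0 (0.596 to 0.855), and 3 barcodes held 83 of its 155 UMIs. Serpina1 barcodes with Havcr1, which these segments leave out, numbered 7 at D1 and 1 at D0. They held 257 Cryab UMIs at D1 (1935 CPM) and 0 at D0. Among the 3 segments the order of Cryab levels at D7 was therefore Serpina1, Slc7a13 and S1. At D0 S1 lay above Slc7a13, with intervals that did not overlap. That D0 order depended on taking Serpina1 barcodes out of the Slc7a13 gate. The Slc7a13 gate as first written kept them and was not cleared. Cryab there stood at 22.1 CPM at D0 (20.6 to 23.7) and 151 CPM at D7. S1 barcodes not cleared had 12.2 CPM at D0 (10.6 to 14.0). Barcodes in no segment had Cryab at 8.70, 25.6, 44.5 and 85.1 CPM, above Slc7a13 and S1 at D7.

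Hspb1 had another order across segments. It stood at 10.6, 10.6, 31.3 and 43.8 CPM in Slc7a13 barcodes, a D7 over D0 ratio of 4.12 (3.66 to 4.65), and at D1 0.999 times D0 (0.852 to 1.17). S1 had 1.10, 1.11, 11.2 and 13.8 CPM, a ratio of 12.6 (7.85 to 21.3), from 19 UMIs at D0. Serpina1 barcodes had 2.63, 5.72, 27.98 and 80.2 CPM, from 4, 3, 51 and 182 UMIs, and the D7 level was 30.5 times D0 with a wide interval (11.7 to 113). At D7 their Hspb1 level was thus above that of Slc7a13 barcodes, and at D0 below it. Of the 3 segments Hspb8 at D7 was highest in S1, at 3.66 CPM from 55 UMIs, with 0.640 CPM from 18 UMIs in Slc7a13 barcodes and 2 UMIs in Serpina1 barcodes. With each segment held at its D0 share, the D7 ratios were 5.75, 5.03 and 7.85 for Cryab, Hspb1 and Hspb8 in Havcr1-negative barcodes, and 6.58, 5.14 and 8.12 with the shares of each library.

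**Figure D2:**
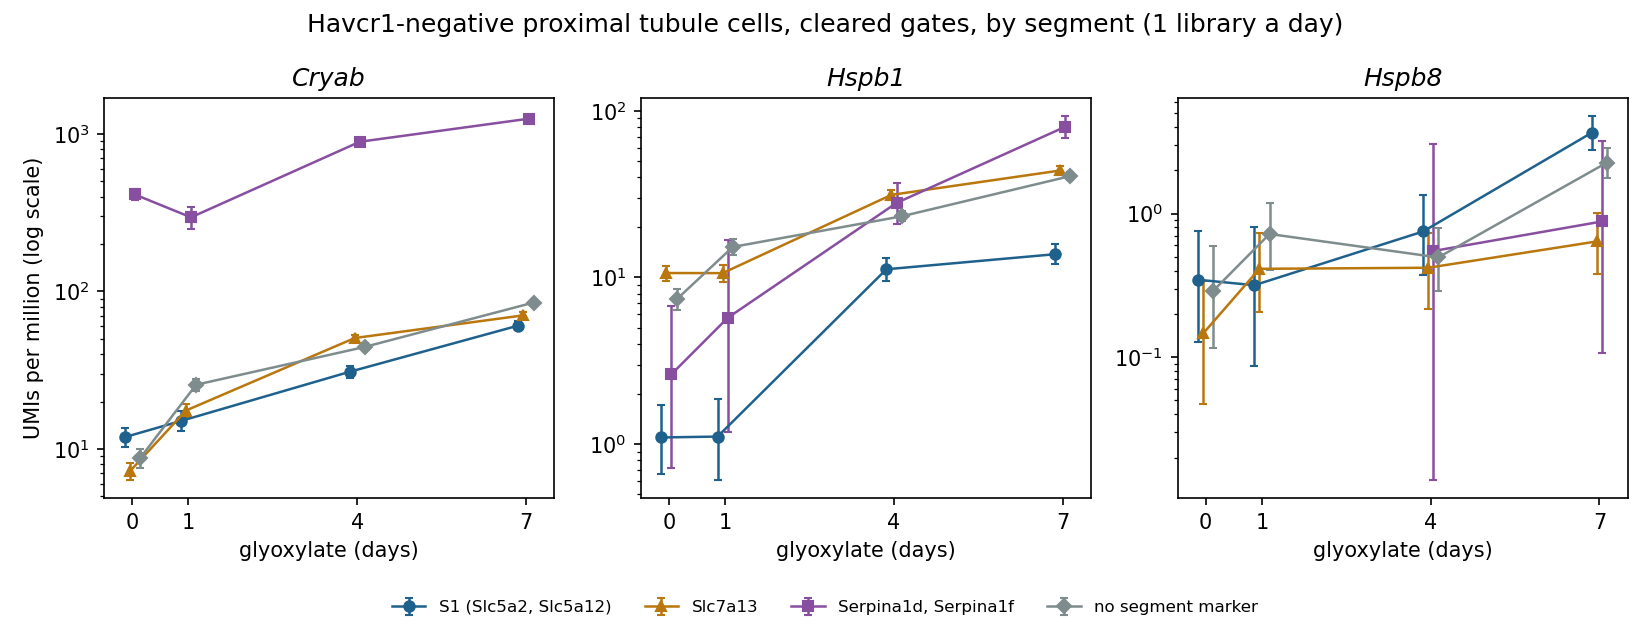
Level of each gene in CPM (log scale) by day in Havcr1-negative proximal tubule barcodes of the cleared gate, by segment; points are 1 library a day, error bars are 95% Poisson intervals, and points with 0 UMIs are not drawn. Cryab is at 413 to 1251 in Serpina1d, Serpina1f barcodes at D0, D4 and D7, and Hspb1 is lowest in S1 at every day. At D0 and D1 the S1 intervals overlap those of Serpina1 barcodes, which rest on 4 and 3 UMIs of Hspb1.

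Barcodes with Havcr1 had higher Cryab and Hspb1 levels than Havcr1-negative proximal tubule barcodes at D1, D4 and D7. The Havcr1-positive gate did not ask for Lrp2 or Slc34a1. Cleared of barcodes with markers of other epithelia, Havcr1-positive tubule barcodes made up 4.38% of kept barcodes at D7. They held 29.3% of the Cryab and 32.1% of the Hspb1 UMIs of kept barcodes. Cryab stood at 349, 305, 1172 and 812 CPM in Havcr1-positive tubule barcodes at D0, D1, D4 and D7, where the D0 value came from 9 barcodes and 23 UMIs. In Havcr1-negative proximal tubule barcodes it stood at 20.8, 28.3, 64.5 and 112 CPM. The Havcr1-positive level was 7.27 times the Havcr1-negative level at D7 (7.01 to 7.55). That ratio was lower when Lrp2 or Slc34a1 was also required, as given below. Hspb1 had 0 UMIs in the 9 D0 barcodes, and 94.4, 365 and 338 CPM at D1, D4 and D7. Set against a floor of 3 counts in those 9 barcodes, Hspb1 was 7.44-fold higher at D7, and the exact lower limit of the ratio was 6.04. In Havcr1-negative barcodes it stood at 12.3, 18.01, 25.4 and 37.9 CPM, so the D7 ratio between Havcr1-positive and Havcr1-negative barcodes was 8.92 (8.40 to 9.47). Hspb8 stood at 6.75 CPM from 35 UMIs in Havcr1-positive barcodes and at 1.90 CPM from 144 UMIs in Havcr1-negative ones at D7, a ratio of 3.55 (2.38 to 5.16). The Cryab level of Havcr1-positive barcodes at D7 was 0.693 times that at D4 (0.663 to 0.724), while that of Havcr1-negative barcodes was higher at D7 than at D4.
Both levels stepped up with the number of Havcr1 UMIs in the cleared gate. With 0, 1, 2 and 3 or more Havcr1 UMIs, Cryab stood at 110, 442, 592 and 1118 CPM at D7, and Hspb1 at 37.6, 141, 323 and 585 CPM. The steps had the same order at D4, with Cryab at 63.7, 396, 639 and 2134 CPM. Median depth at D7 moved with it, at 5582.5, 6967.5, 8377.5 and 8649.5 UMIs. Thinned to 1000 UMIs the D7 ratios between Havcr1-positive and Havcr1-negative barcodes were 7.73 for Cryab and 9.59 for Hspb1. Barcodes with both Serpina1 and Havcr1 had Cryab at 2706 CPM at D4 (89 barcodes) and 2740 CPM at D7 (68 barcodes), and Serpina1 barcodes without Havcr1 at 893 and 1251 CPM. Without Serpina1, Havcr1-positive barcodes still had Cryab at 304 CPM (504 barcodes) and Havcr1-negative ones at 74.4 CPM at D7. Hspb1 in Serpina1 barcodes at D7 stood at 407 CPM with Havcr1 and 80.2 CPM without it.

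**Figure D3:**
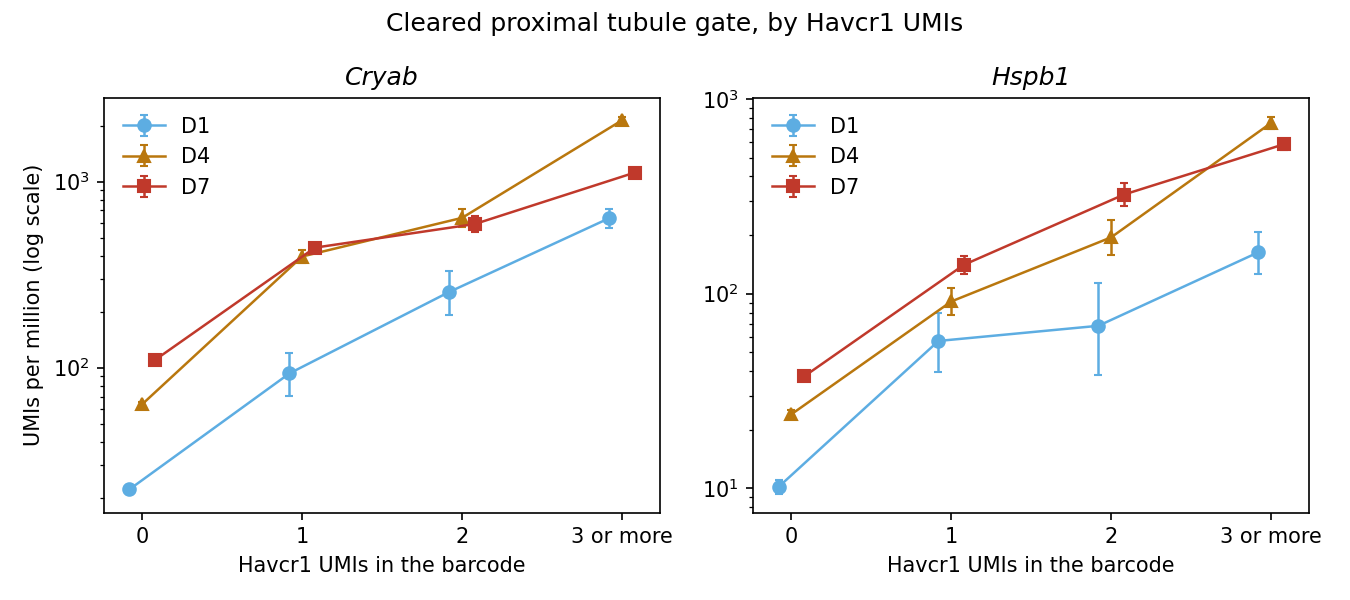
Level of Cryab (left) and Hspb1 (right) in CPM (log scale) against the number of Havcr1 UMIs in the barcode, in the cleared proximal tubule gate at D1, D4 and D7; error bars are 95% Poisson intervals of 1 library. Cryab at D4 goes up to 2134 and at D7 to 1118 with 3 or more Havcr1 UMIs.

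**Figure D4:**
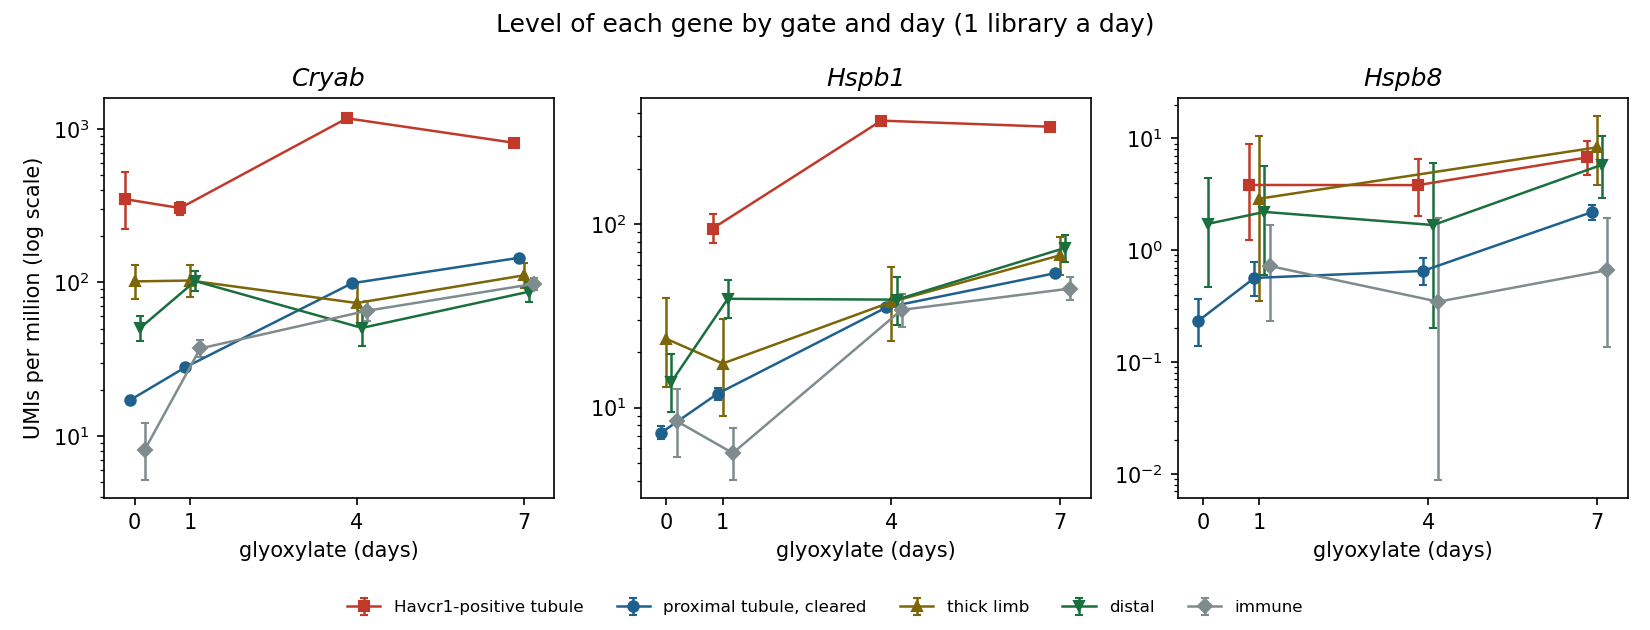
Level of each gene in CPM (log scale) by day in 5 gates; points are 1 library a day, error bars are 95% Poisson intervals, and points with 0 UMIs are not drawn. Havcr1-positive barcodes lie above the other gates for Cryab at every day and for Hspb1 at D1, D4 and D7.

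A small share of barcodes held a large share of the UMIs. In the cleared gate the top 1% of barcodes held 72.2, 62.2, 45.9 and 37.3% of Cryab UMIs and 75.7, 73.8, 50.6 and 46.2% of Hspb1 UMIs at D0, D1, D4 and D7. The number of barcodes with at least 5 Cryab UMIs was 50, 60, 366 and 565, and of the 565 at D7, 206 had Serpina1 and 148 had Havcr1. At D0, none of the 30 barcodes with at least 5 Hspb1 UMIs had either. After thinning, 7.27% of cleared proximal tubule barcodes had Cryab at D7 (6.81 to 7.74) and 1.11% at D0 (0.920 to 1.32), against unthinned shares of 23.2 and 4.10%. Immune barcodes, which should lack the gene, had 3.96% at D7 (2.69 to 5.60) and 0.575% at D0 (0.157 to 1.46), at median depths of 4865 and 2658.5 UMIs against 5657.5 and 5621.5 in the proximal tubule gate. At D0, 479 proximal tubule and 30 immune barcodes were too shallow to thin. The proximal tubule share of Cryab lay within the immune interval at D0 and above it at D7. The Hspb1 shares were 2.92% in proximal tubule barcodes at D7 (2.63 to 3.24) and 0.599% at D0 (0.463 to 0.761), and the immune intervals were 1.01 to 3.08% and 0.317 to 1.87%. These immune barcodes carry proximal tubule RNA themselves, as given below with the other gates, so their shares hold part of the proximal tubule signal. Among Havcr1-positive barcodes the thinned D7 shares were 27.6% for Cryab (24.1 to 31.2) and 15.9% for Hspb1 (13.1 to 19.0), above those immune intervals.
At D7, barcodes with Hspb1 had Cryab more often than barcodes without it. In the cleared gate at D7, 21.7% of thinned barcodes with Hspb1 had Cryab (17.5 to 26.3), against 6.83% of those without Hspb1 (6.39 to 7.30). At D0 the shares were 3.03% (0.369 to 10.5) and 1.10% (0.909 to 1.31), which could not be told apart at this depth. Among Havcr1-positive barcodes at D7, 45.5% with Hspb1 had Cryab (35.6 to 55.8), and 24.2% without it (20.6 to 28.02). In Havcr1-negative barcodes of the cleared gate at D7 both shares were lower, at 14.7% (10.8 to 19.5) and 6.21% (5.77 to 6.67). Among Serpina1 barcodes at D7, 7.30% with Cryab had Hspb1 (3.56 to 13.0) and 6.14% without it (2.50 to 12.2), from 17 barcodes with Hspb1, too few to show a difference of that size. Cryab and Hspb8 shared 10 of the 23 thinned barcodes with Hspb8 at D7, and Hspb1 and Hspb8 shared 0, where the limit for a count of 0 is wide (up to 14.8%).

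In the thick limb and distal gates Cryab was nearer to its D0 level at D7 than in the proximal tubule gate. The distal ratio of Hspb1 lay between those of the whole and the cleared proximal tubule gate. Thick limb Cryab stood at 101, 103, 73.3 and 111 CPM, with a D7 over D0 ratio of 1.09 (0.796 to 1.52). It was 0.730 without barcodes with 2 or more UMIs of Lrp2 plus Slc34a1 and 2.50 after thinning to 1000 UMIs. The thinned ratio rests on few barcodes with Cryab, 20 of 164 at D7 and 7 of 99 at D0. Thick limb Hspb1 stood at 23.7, 17.4, 37.6 and 67.5 CPM from 14, 12, 20 and 73 UMIs, a ratio of 2.85 (1.60 to 5.48). Distal Cryab stood at 50.0, 102, 50.4 and 86.7 CPM, a ratio of 1.73 (1.36 to 2.22) and of 2.82 thinned. Distal Hspb1 stood at 13.8, 39.1, 38.7 and 74.1 CPM, a ratio of 5.36 (3.63 to 8.14). Of the 71 distal Hspb1 UMIs at D1, 1 barcode held 21. Proximal tubule RNA carried into these gates was 31.9 and 31.6% at D7, judged by 10 proximal markers. This corresponds to 46.5 and 46.0 CPM of Cryab in the thick limb and distal gates. At D0 the carried Cryab was 5.34 and 5.17 CPM, and at D4 36.9 and 47.7 CPM. The thick limb and distal ratios above do not take carried RNA off, and its part in them was not tested. Of the genes known to be induced by cell dissociation, 12 of 13 in the thick limb and 14 of 14 in the distal gate were at least 1.5-fold higher at D7 (in CPM plus 1, with at least 50 UMIs in the pair), against 14.2 and 14.9% of all genes. Their part in the Hspb1 levels was not tested. Hspb8 came from 9 UMIs at D7 and 0 UMIs at D0 in the thick limb, and 11 and 4 UMIs in the distal gate.
In immune barcodes Cryab stood at 8.09, 37.1, 65.2 and 97.6 CPM and Hspb1 at 8.44, 5.65, 34.0 and 44.5 CPM. At D1, 1 barcode held 207 of the 256 Cryab UMIs. Carried proximal tubule RNA came to 44.8, 39.8, 69.0 and 52.4%, which corresponds to 9.45, 13.5, 68.4 and 76.3 CPM of Cryab, so at D0 and D4 the measured level lay below the carried one. Free RNA and doublets were not told apart, and no Cryab or Hspb1 level is read from immune cells. Leaving out immune barcodes with 2 or more UMIs of Lrp2 plus Slc34a1 gave a Cryab ratio of 2.78, in place of 12.1, for D7 over D0.

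The rest of the family was scarce. Hspb2, a muscle-type small heat shock protein, stood at 1.12, 1.55, 2.37 and 3.13 CPM in the proximal tubule gate, a D7 over D0 ratio of 2.79 (2.18 to 3.60), and it shares bases with Cryab. Hspb6 (Hsp20) stood at 4.25, 5.90, 6.04 and 6.90 CPM, a ratio of 1.62 (1.42 to 1.87). Cryaa, the lens α-crystallin, had 17, 7, 12 and 9 UMIs, and Hspb7 and Hspb9 had 5 or fewer at any day. Hspb3 had 1 UMI at D1 and 0 otherwise, and Odf1 had 0 UMIs in this gate. Of the 10 family genes, 5 had at least 50 UMIs in the D7 and D0 pair, and 2, 3 and 5 of them were at least 1.5-fold higher at D1, D4 and D7 on the scale of CPM plus 1, against 1.67, 4.58 and 7.16% of all genes with that many UMIs. Since 3 of these 5 were chosen by those levels, nothing is read from the count.

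Of 23 chaperone partners, 0, 4 and 4 were at least 1.5-fold higher at D1, D4 and D7 in the proximal tubule gate, against 1.67, 4.58 and 7.16% of all genes. At D7, 0 were lower, against 1.72% of all 12652 genes, and the median log2 ratio was 0.03, beside 0.06 over all genes. The 4 at D7 were Hspa1a and Hspa1b, the inducible Hsp70 genes, and the Hsp40 genes Dnajb1 and Dnajb4. Hspa1a stood at 69.6, 60.9, 170 and 229 CPM at D0, D1, D4 and D7, a D7 over D0 ratio of 3.29 (3.19 to 3.39). Hspa1b stood at 47.4, 40.5, 83.9 and 105 CPM, a ratio of 2.22 (2.14 to 2.31), Dnajb4 had a ratio of 1.72 (1.64 to 1.81) and Dnajb1 of 1.57 (1.51 to 1.64). Hspa1a and Hspa1b are near-identical, so reads may be shared out between them. Of the dissociation-induced genes, 9 of 14 were at least 1.5-fold higher at D7 in the proximal tubule gate, against 7.16% of all genes, with a median log2 ratio of 0.85, and their part in the levels of the members and partners was not tested.
Of 18 cytoskeletal clients, 16 were measured, and 8 were higher and 3 lower at D7 in the whole gate, against 7.16 and 1.72% of all genes, with a median log2 ratio of 0.66. Vim, an intermediate filament protein of mesenchymal and injured tubule cells, stood at 1.505, 4.67, 5.70 and 8.14 CPM, a ratio of 5.41 (4.44 to 6.64). In the same gate the summed level of 7 immune markers was 86.7 CPM at D7 and 26.8 CPM at D0, with none at 0. That of 6 mesenchymal markers was 3.54 CPM at D7 and 0.204 CPM at D0, with 1 and 3 of them at 0. Their part in the client levels was not tested. The 3 lower genes were the keratins Krt7, Krt18 and Krt19. In the cleared gate 10 were higher and 0 lower, against 7.61 and 1.37% of genes. Krt18 stood at 5.77 CPM at D7 and 24.8 CPM at D0 in the whole gate, but at 3.798 and 1.722 CPM in the cleared gate, which is the opposite direction. There Krt7 stood at 2.16 and 2.01 CPM and Krt19 at 1.00 and 1.23 CPM, with intervals of the ratio that include 1. Krt7 had 3.72 and 15.3 CPM, and Krt19 1.99 and 11.8 CPM in the whole gate, at D7 and D0. Between Havcr1-positive and Havcr1-negative barcodes at D7, 11 of 16 clients and 0 of 23 chaperone partners were at least 1.5-fold higher, against 11.1% of 11909 genes.

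**Figure D5:**
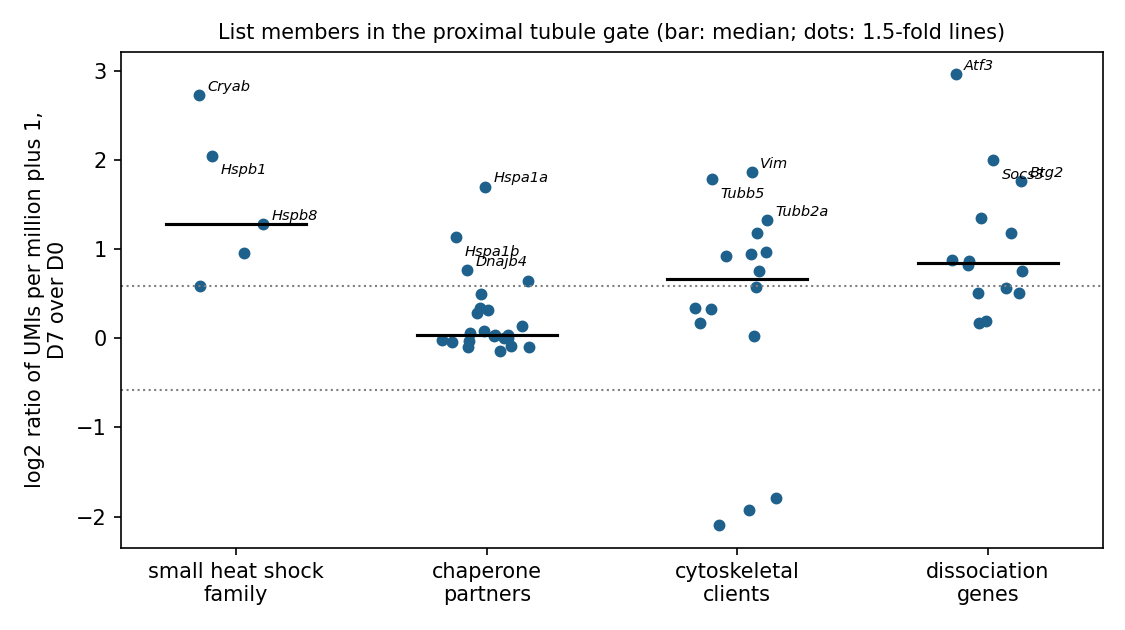
Log2 ratio of CPM plus 1, D7 over D0, in the whole proximal tubule gate for list members with at least 50 UMIs in the pair; black bars are medians, dotted lines mark 1.5-fold in each direction, and the 3 highest of each list are named. The median of chaperone partners is 0.03, and the 3 points below the lower line are Krt18, Krt7 and Krt19.

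Likeness was measured as the Pearson correlation of log2(CPM + 1) over 27 profiles of gate and day with at least 50 barcodes, among 11123 genes with at least 500 UMIs. These profiles share libraries, so it is a description. Cryab was most like Hspb1 (r = 0.9004), then Tnfrsf12a, Nrg1, F3 and Serpina10 (0.882 to 0.817). Hspb1 was most like Cryab, then Tnfrsf12a, Pdxk, F3 and Lmna (0.825 to 0.790). Hspb8, with 335 UMIs in these profiles, was most like Tuft1 and Sox9 (0.816 and 0.811), and Cd151 and Strn3 followed at 0.747 and 0.742. With Serpina1 as its own segment and cleared gates (30 profiles), the correlation of Cryab and Hspb1 was 0.681, Hspb1 was 43rd in likeness to Cryab, and Serpina1f (0.854), which defines that segment, and Hspb2 (0.837), which overlaps Cryab, came first. Hspb1 was then most like Tnfrsf12a (0.856) and Gadd45a (0.832).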

How the data were processed

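Kidney cells of 4 libraries, 1 a day, were measured by 10x droplet RNA sequencing. The authors deposited raw UMI counts per gene and barcode, with no normalization. Cell Ranger 3.1.0 and mm10 were used, per the submitters' processing notes; no source used here gives the annotation release or the cell calling. Members and gene lists were chosen with earlier results of these data known.

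UMIs of a gate were summed and divided by the gate's total (CPM). Ratios have exact conditional Poisson intervals, levels exact Poisson intervals and shares exact Clopper-Pearson intervals, all at 95% and for counting error only. Barcodes passing several of the thick limb, distal and immune gates were left out, and the proximal gates hold none that pass one. Shares used barcodes thinned to 1000 UMIs. A call is 1.5-fold in CPM plus 1 with at least 50 UMIs in the pair. Named genes are the family, the 4 chaperone partners and 4 clients with the largest absolute log2 ratio at D7, and the 5 genes most like each member, of which 1 is not reported here. Carried RNA is the median over source markers of their level in the receiving gate over that in the source gate. edgeR 4.0.16 supplied TMM factors used as a scaling only, in R 4.3.3. Barcodes with the highest Scrublet scores were removed in an alternative, at 0.8% per 1000 barcodes, which took out 13.1, 10.2, 13.1 and 12.1% of barcodes. Other alternatives changed the mitochondrial limit, depth floor, proximal threshold, pseudocount and thinning. Calculations used Python 3.11.15, numpy 2.4.6, scipy 1.17.1, pandas 2.3.3 and scanpy 1.11.5. Ratios, intervals and thinning were tested on simulated data. For ratios and intervals these were Poisson draws, as the intervals assume, so UMIs gathered in few barcodes were not covered.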

Additional observations from a re-analysis of the deposited data

Results flagged for a closer look

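Some levels lay on the other side of D0 from those of the proximal tubule gate, which was not tested as a difference. Cryab at D1 in Havcr1-negative Serpina1 barcodes was 0.716 times D0, and in the thick limb at D4 0.723 times D0 (0.470 to 1.10). The proximal tubule gate stood at 1.60 and 4.70 times D0. Hspb1 at D1 was 0.734 times D0 in the thick limb (0.310 to 1.71) and 0.669 times D0 in immune barcodes (0.392 to 1.16), against 1.59 in the proximal tubule gate. Except for Serpina1, these intervals include 1. The Serpina1 value leaves out 7 barcodes with Havcr1 at D1, which had Cryab at 1935 CPM.

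Barcodes with over 50% mitochondrial UMIs, which no comparison uses, also held the members. Cryab stood at 55.7 CPM at D4 and 38.5 CPM at D7, against 6.31 CPM at D0, and Hspb1 at 9.27 CPM at D7, against 1.83 CPM at D0, in 324, 632 and 1941 barcodes at D4, D7 and D0. Per 1e+06 UMIs without mitochondrial genes, Cryab stood at 162 at D4 and 123 at D7, against 28.4 at D0, and Hspb1 at 29.7 at D7, against 8.23 at D0, so the differences were smaller on that scale.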

How the results depend on the processing

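No paired analysis was possible because each day has 1 library and the days share 1 replicate number. Over 312 alternative values of member ratios, 243 lay within the main interval, 69 outside it and 308 above 1. The 4 below 1, at 0.730 to 0.974, were all for Cryab at D7 over D0 in the thick limb, whose reported interval includes 1. Thinned to 1000 UMIs, that ratio was 2.50, the distal Cryab ratio 2.82, and Hspb1 at D1 over D0 in the proximal tubule gate 2.39. The last was 1.23 with at least 5 UMIs of Lrp2 plus Slc34a1. Its thinned value includes the D1 barcode of 2310 UMIs that held 159 Hspb1 UMIs, whose part was not tested. In the proximal tubule gate the D7 over D0 ratio of Cryab was 6.49 with TMM scaling (a shift of 0.09 in log2, and 0.25 in the distal gate), 5.36 without Havcr1-positive barcodes, 8.48 in the cleared gate, 8.63 there without the top barcode and 5.75 with the segment shares of D0. That of Hspb1 was 5.20 with at least 5 UMIs of Lrp2 plus Slc34a1, 3.07 without Havcr1-positive barcodes, 7.38 in the cleared gate, 7.52 there without the top barcode and 5.03 with the segment shares of D0. Between Havcr1-positive and Havcr1-negative barcodes at D7, Cryab was 6.06 when Lrp2 or Slc34a1 was also required, 10.6 with 2 or more Havcr1 UMIs and 7.73 thinned. Hspb1 was 8.13, 14.3 and 9.59 under the same settings, and 9.53 with the highest Scrublet scores removed. A pseudocount of 10 CPM left 5 cytoskeletal clients higher, and the cleared gate left 0 lower. The cleared gate, the segment shares and leaving out top barcodes were added after the data were seen, and the cause was not tested. Counting error limits Hspb8 most: thinned ratios from 3 or fewer UMIs are not given.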
